A study of Mus musculus with 12 samples.

Results

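The comparison set 3 GFP-positive mouse muscle stem cell libraries labelled SIX2 plasmid against 3 labelled control plasmid. Genes entered the comparison when at least 3 of these 6 libraries held 10 or more normalized counts, which are read counts divided by a scaling factor per library, and 13857 of the 23586 genes in the table did. The cells carried the genotype Pax3nLacZ-IRES-GFP, a reporter allele in which GFP marks activity of the Pax3 locus, and the labels describe the GFP-positive fraction as PAX3-positive. They were sorted by flow cytometry, cultured in medium with 20% fetal calf serum and 4 ng/mL bFGF, and lipofected with 2 µg of pCR3-Six2, an expression plasmid holding mouse Six2 cDNA, or with empty pCR3. At least 50000 cells, kept at low density, were collected for each sample. The reporter allele, the sort, the medium and the plasmid backbone were therefore common to both groups. Age, sex, the muscles of origin and whether the 3 libraries of a label came from separate animals or cultures are not given in the sources used here. The p-values below rest on the spread between libraries of the same group, estimated over all 12 libraries of the series, GFP-negative ones included. This spread may be technical.

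SIX-family proteins are homeodomain transcription factors that bind a motif called MEF3 and act with EYA cofactors in the embryonic muscle programme, upstream of Pax3 and of the myogenic regulatory genes. PAX3 and PAX7 mark muscle progenitors, and MYF5 and MYOD1 commit cells to the muscle lineage. MYOG then drives their exit from the cell cycle, fusion and assembly of the contractile apparatus. SIX2 is best known for holding nephron progenitors in an undifferentiated state.

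The targeted gene did not check the labels. Six2 had 7, 24 and 4 reads in control libraries 1, 2 and 3 and 16, 12 and 4 reads in SIX2 libraries 1, 2 and 3, or 5.35, 13.3 and 3.37 against 28.6, 23.4 and 6.51 normalized counts. The 2 ranges overlapped, and the log2 change of 1.26 ± 0.68 (SE) did not pass the test (adjusted p = 0.209, limma-trend). Libraries are called SIX2 or control below as labelled. Whether reads from the plasmid's cDNA would be counted on this gene is not given in the sources used here.

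Depth differed with the label. Control libraries held 31.3 to 47.3 M assigned reads (M, 1e+06) and SIX2 libraries 12.6 to 15.5 M, so 1 read was worth 0.553 to 0.844 normalized counts in the first and 1.63 to 1.95 in the second. After every library was thinned to the smallest, 2984 genes were called in place of 3365, and 85.3% of the original calls were among them. Mitochondrial transcripts took 3.59 to 4.82% of reads in controls and 3.84 to 4.19% in SIX2 libraries, and the rRNA gene model CT010467.1 took 3.93 to 5.75% and 3.14 to 5.10%. The first principal component of the 6 libraries held 40.9% of the variance and placed all 3 control libraries on one side and all 3 SIX2 libraries on the other, and the second, with 21.7%, spread the libraries within each label.

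Genes of committed and differentiating muscle were abundant in these libraries. Per kilobase of exon, the control mean was 413417 normalized counts for Acta1, skeletal α-actin, 61962 for Myog and 9202 for Myod1. On the same scale Myf5 stood at 842 and Pax7, the defining stem cell factor, at 16.7. Markers of other cell types ranged from 0 to high levels. Dcn of fibroblasts, Higd1b of pericytes, Lyz2 and Adgre1 of macrophages, Fabp4 of adipocytes and Elavl4 of neurons had 0 reads in all 6 libraries. These are members of the marker lists, named here after their values were seen. Summed over the marker list of each cell type, fibro-adipogenic markers (7 of 14 in the comparison, 3 called higher) ran from 4158 to 5368 in controls and from 6791 to 7110 in SIX2 libraries, carried mainly by Col3a1 and Gsn. Pericyte and smooth muscle markers (9 of 12, 3 higher and 1 lower) ran from 57757 to 61136 and from 58656 to 64019, and endothelial markers (2 of 12, 1 higher and 1 lower, the latter Vwf, not called without control library 1 or 2 or SIX2 library 2 or 3) from 119.5 to 154 and from 101 to 154. Other sums were lower in every SIX2 library than in any control. Schwann and glial markers (3 of 10, 1 called lower, Ngfr) ran from 562 to 654 in controls and from 272 to 360 in SIX2 libraries. Chondrocyte and bone markers (5 of 10, 1 higher, Dmp1, and 1 lower, Sp7) ran from 3074 to 3591 and from 2254 to 2359. Adipocyte markers (3 of 10, 1 higher, Lpl, and 1 lower, Pparg) ran from 808 to 916 and from 640 to 709. Markers of the myogenic cells themselves (9 of 10, 2 higher and 3 lower) ran from 461934 to 479903 and from 409859 to 447620. Their lower count was 0 under quantile scaling and without control library 1 or SIX2 library 2. The sums of tendon, neuronal, epithelial and leukocyte markers overlapped between the labels. In bulk RNA, fewer cells of a type and less RNA per cell cannot be told apart. A sum from a list with 1 or 2 called genes, some of them opposed, shows neither.

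The libraries separated widely. Among the 13857 genes, 1747 were called higher and 1618 lower in SIX2 libraries at an adjusted p under 0.05, where across all 14580 genes tested 12.1% were called higher and 11.2% lower. The changes were moderate in size: the median log2 change was 0.69 among the genes called higher and −0.46 among those called lower. Past 2-fold, 501 genes were called higher and 211 lower, against 3.53% and 1.56% of all genes tested. In 3281 of the 3365 called genes the ranges of the 2 labels did not overlap, where 18.7% of all tested genes lay wholly above and 18.1% wholly below regardless of the test. The median change over all tested genes was −0.01 on the log2 scale. Counts of genes called on the lists below are to be read against these shares of 12.1% higher and 11.2% lower.

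Direction went with expression level. When the genes were cut into 5 equal bins by mean level, in the highest bin 26.3% were called lower and 12.7% higher. In the lowest bin 3.35% were called lower and 5.19% higher. Calls at low levels rested on fewer reads, as the plot of change against level shows.

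**Figure D1:**
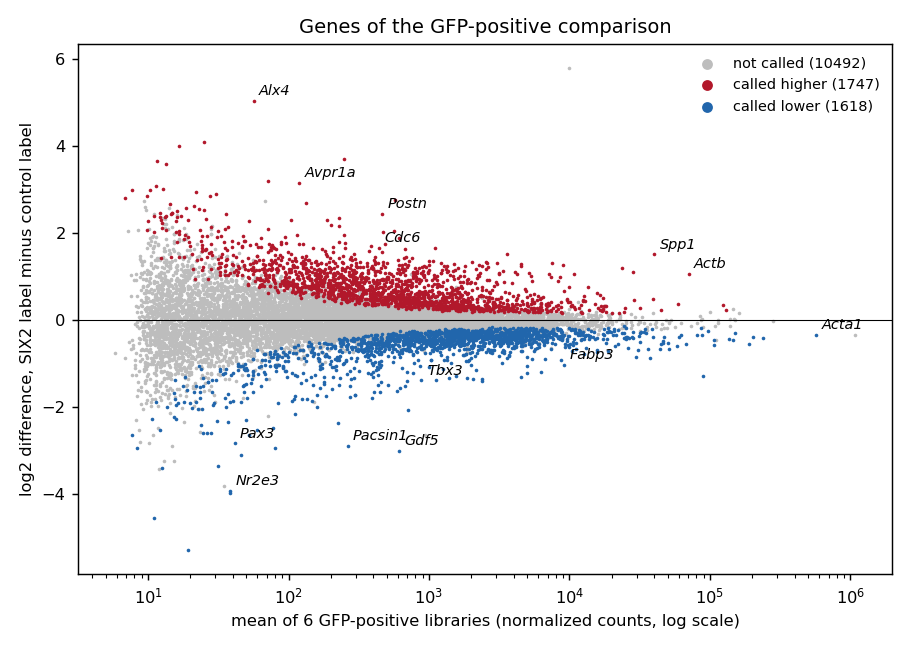
Log2 change between SIX2 and control labels (vertical axis) against the mean of the 6 libraries in normalized counts (horizontal, log scale), 1 point per gene of the comparison. More of the 1747 genes called higher (501) than of the 1618 called lower (211) lie past 2-fold, and lower calls are most frequent at high mean levels.

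Genes with very different roles were among the 20 largest increases. Alx4, a homeobox factor of the anterior limb mesenchyme and skull (ENSMUSG00000040310.12, GRCm38 chromosome 2, 93642384 to 93681339, plus strand), had 0.765, 3.87 and 3.37 normalized counts in control libraries 1, 2 and 3 and 127, 85.7 and 119 in SIX2 libraries 1, 2 and 3. It was near the limit of counting in every control library and clearly read in every SIX2 library. Avpr1a, the V1a vasopressin receptor, stood at 22.2, 16.6 and 32.9 in controls and 247, 214 and 182 in SIX2 libraries, a log2 change of 3.15 ± 0.29 (SE; adjusted p = 9.9e-06, limma-trend). The lowest SIX2 library lay more than 5 times above the highest control library.

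Serpine2, the protease inhibitor nexin-1 (ENSMUSG00000026249.10, chromosome 1, 79794197 to 79861180, minus strand), rose from 80.3, 96.9 and 72.6 to 397, 353 and 374 (log2 2.17 ± 0.17, adjusted p = 2.9e-06). Tmeff2, a membrane protein with follistatin-like and EGF-like domains, rose from 98.7, 109.6 and 94.5 to 382, 392 and 407 (log2 1.96 ± 0.16, adjusted p = 4.39e-06). Both genes had tight replicates and no overlap, and both rose by a similar amount in the GFP-negative libraries, by 2.21 and 2.13 on the log2 scale. Cdh11, a cadherin of mesenchymal cells, had 192, 311 and 175 in controls and 1050.4, 869 and 803 in SIX2 libraries (log2 2.04 ± 0.23). Fbln2, an extracellular fibulin, had 204, 199 and 154 in controls against 765, 701 and 789.7 in SIX2 libraries (log2 2.02 ± 0.16). The SIX2 libraries lay above all controls for both. Cpne4, a calcium-dependent membrane-binding copine, rose by 2.19 ± 0.19 and Nsg1, an endosomal protein best known from neurons, by 2.10 ± 0.28 on the log2 scale.

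A further set of large increases had a wide spread among controls. Wasf3, an activator of actin branching through the ARP2/3 complex, had 5.35, 29.3 and 11.0 normalized counts in controls and 76.8, 56.5 and 42.3 in SIX2 libraries (log2 2.13 ± 0.50, adjusted p = 0.00804). Prkcz, the atypical protein kinase C zeta, had 8.41, 6.64 and 29.5 in controls against 41.1, 50.7 and 76.5 in SIX2 libraries, with control library 3 above the other two. Txnip, the thioredoxin-interacting protein that limits glucose uptake, had 55.8, 17.2 and 85.2 in controls against 229, 152 and 145 in SIX2 libraries, with control library 2 lowest. Ranges did not overlap for any of these 3 genes. In the GFP-negative libraries the plasmid-label change was −0.37 for Wasf3, 0.30 for Prkcz and 0.09 for Txnip, none of them called. The difference between the 2 populations did not pass its own test (adjusted p = 0.129, 0.213 and 0.17).

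The largest decreases included secreted, metabolic and little-studied genes. Gdf5, a BMP-family ligand of joints and tendon (ENSMUSG00000038259.4, chromosome 2, 155941023 to 155945367, minus strand), had 1092, 1026 and 1126 normalized counts in controls and 111, 142 and 155 in SIX2 libraries. Its controls were nearly equal, and its SIX2 libraries were all below 160. Exons of Gdf5 overlap the gene model Gm15557 on the other strand, and the library protocol does not mark strand, so their reads cannot be told apart. Cilp2, a cartilage matrix protein, fell from 1131, 1253 and 1033 to 241, 269 and 303 (log2 −2.07 ± 0.13, adjusted p = 9.17e-07, limma-trend). Every SIX2 library was under 310 and every control above 1000.

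Pck1, the cytosolic phosphoenolpyruvate carboxykinase of gluconeogenesis, fell from 188, 153 and 201 to 33.9, 37.0 and 48.8 (log2 −2.16 ± 0.30, adjusted p = 0.000219). Mss51, a muscle mitochondrial protein described as a regulator of muscle metabolism, fell from 214, 230.2 and 249 to 59.0, 76.0 and 55.4 (log2 −1.86 ± 0.19, adjusted p = 1.71e-05). For both, the highest SIX2 library lay far below the lowest control. Pacsin1, a membrane-bending F-BAR protein, had 488, 466 and 434 in controls against 41.1, 77.9 and 73.3 in SIX2 libraries (log2 −2.88 ± 0.25). Prr32 fell (log2 −2.93 ± 0.42), Trmt9b, a tRNA methyltransferase relative, (log2 −1.85 ± 0.25), and Tdrd1, a Tudor protein of the germline piRNA pathway, (log2 −2.49 ± 0.63). Wwc1, the KIBRA scaffold of Hippo signalling, had 98.7, 44.3 and 41.3 in controls and 3.57, 13.6 and 21.2 in SIX2 libraries, with control library 1 at more than 2 times the other controls. Its change was −2.34 ± 0.52 here and −0.07 in the GFP-negative libraries, where it was not called, and the difference had an adjusted p of 0.167.

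**Figure D2:**
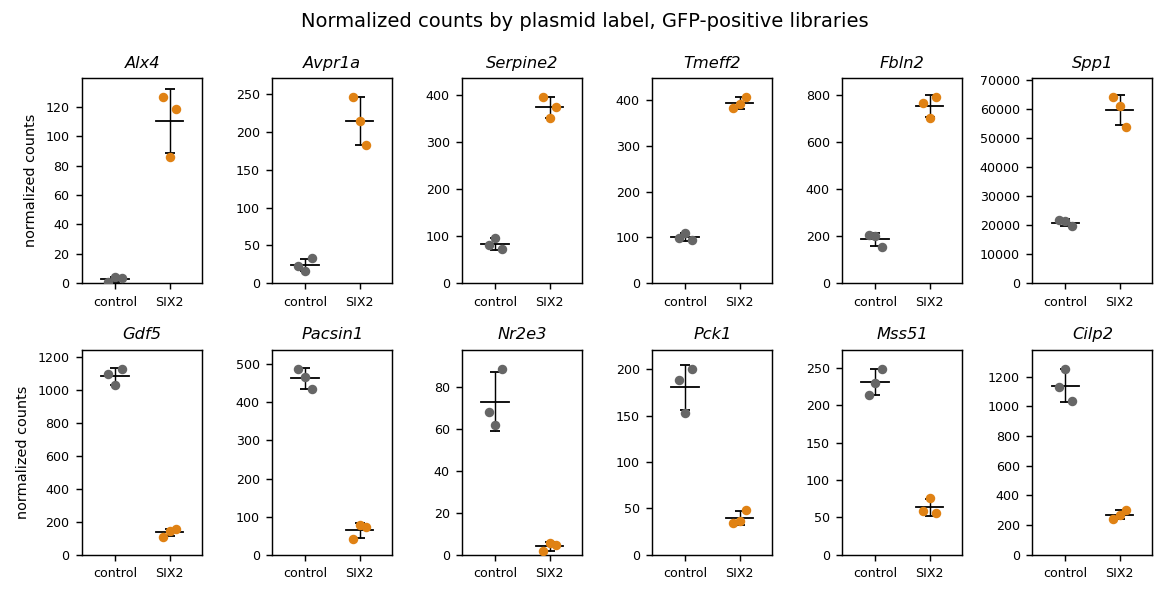
Normalized counts (linear axis from 0) of 12 genes among the largest changes in the 3 control and 3 SIX2 libraries. Dots are libraries, the line is the mean and the bar the SD (n = 3), and for each gene shown the libraries of one label all lie above those of the other.

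A gene that reaches 10 in the libraries of 1 label only must differ between the labels to enter: 52 genes entered through the 3 controls alone and 65 through the 3 SIX2 libraries alone, of which 17 and 31 were called. Alx4 and, below, Ly6a are among the 65, and Axin2, below, is among the 52.

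The genes that define muscle stem cells did not move as one. Of the 19 lineage factors in the comparison, 4 were called higher and 5 lower, with a median log2 change of −0.18. Pax3, the gene behind the reporter, was among the largest decreases at −2.82 ± 0.41. Pax7 had 109, 100.2 and 85.2 normalized counts in controls and 159, 166 and 184 in SIX2 libraries (log2 0.79 ± 0.20, adjusted p = 0.0126), and Myf5 had 1684, 1843 and 1735 in controls against 3221, 3153 and 2610.1 in SIX2 libraries (log2 0.77 ± 0.11, adjusted p = 0.000353). Both were higher in all 3 SIX2 libraries than in any control, in the opposite direction to Pax3. Heyl, a Notch-responsive repressor kept on in quiescent satellite cells, had 209, 221 and 228 in controls against 668, 618 and 519 in SIX2 libraries (log2 1.45 ± 0.18, adjusted p = 8.34e-05).

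Among the other myogenic regulatory factors, Myod1 and Myf6 were not called and Myog fell by a small amount. Myod1 had 16740.0, 17668 and 16969 in controls and 15944, 14409.8 and 16673 in SIX2 libraries, with a log2 change of −0.13 ± 0.07 that did not pass the test (adjusted p = 0.188), and Myf6, the late myogenic factor, changed by 0.22 ± 0.12 without a call (adjusted p = 0.211). Myog had 94515, 93611 and 89772 in controls against 79024, 77723 and 86231 in SIX2 libraries, a log2 change of −0.19 ± 0.06 whose call was fragile. Without control library 1 or 2 or SIX2 library 1 or 2, its adjusted p was 0.0974, 0.0911, 0.0943 and 0.115. Mef2c, a partner of the myogenic factors, fell (log2 −0.27 ± 0.05) and Id1, an inhibitor of their DNA binding, (log2 −0.35 ± 0.08).

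Relatives of Six2 and EYA cofactors were among the genes measured. Six4 changed by 0.06 ± 0.17, Eya1 by 0.26 ± 0.18, Eya3 by 0.13 ± 0.10 and Eya4 (log2 −0.23 ± 0.15), and none was called. Six5 had 32.9, 25.5 and 22.8 in controls and 10.7, 13.6 and 14.7 in SIX2 libraries and was not called (adjusted p = 0.152). Eya2 had too few reads to be tested.

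Surface markers used to sort satellite cells split in both directions, 5 higher and 2 lower of 18. Vcam1, an adhesion molecule of satellite cells, had 329.7, 369 and 290.2 in controls and 1065, 1111 and 889 in SIX2 libraries, with tight replicates and no overlap (log2 1.63 ± 0.13, adjusted p = 4.39e-06). Sdc4, a heparan sulfate proteoglycan, rose by 0.91 ± 0.08, Fgfr4 by 0.73 ± 0.15 and the tetraspanin Cd82 by 0.48 ± 0.10. Ncam1, the neural adhesion molecule that rises as myoblasts differentiate, had 44939, 45976 and 43949.7 in controls and 33414, 33636 and 35648 in SIX2 libraries and fell (log2 −0.39 ± 0.05). Cdh15 and Itga7, chosen after their values were seen, changed by 0.05 and −0.08 and were not called.

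Signalling genes showed opposed ligands, receptors and modifiers in the same pathway. Notch signalling keeps satellite cells undifferentiated through receptors on one cell and ligands on its neighbour. Notch3 had 84.1, 105 and 96.2 normalized counts in controls and 314, 267 and 239 in SIX2 libraries (log2 1.51 ± 0.24, adjusted p = 0.000522), and Notch1 rose by 1.13 ± 0.21. On the ligand side, Jag2 fell (log2 −0.71 ± 0.11). Lfng, the fringe glycosyltransferase that modifies Notch receptors, had 1957, 1547 and 2524 in controls and 820.0, 719 and 806 in SIX2 libraries (log2 −1.33 ± 0.19, adjusted p = 0.000274). All SIX2 libraries were below 830 and all controls above 1500. Together with Heyl, 4 of 22 Notch genes were called higher and 6 lower, and the lower count was 3 without control library 1 or SIX2 library 2. Hes1 and Hey1, target genes chosen after their values were seen, changed by −0.22 ± 0.42 and −0.33 ± 0.15 and were not called.

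Wnt signalling held 3 genes called higher and 10 lower of 37, with a median of −0.12. Wnt5a, a non-canonical ligand (ENSMUSG00000021994.15, chromosome 14, 28504750 to 28527448, plus strand), had 2.29, 16.6 and 4.22 in controls and 48.2, 48.7 and 45.6 in SIX2 libraries (log2 2.85 ± 0.53, adjusted p = 0.0018). Its SIX2 libraries agreed closely, and control library 2 was the highest control. The receptor Fzd4 had 121, 84.1 and 21.1 in controls against 316, 309.8 and 269 in SIX2 libraries (log2 2.29 ± 0.44, adjusted p = 0.00216), with control library 3 far below the other controls. Among the ligands that fell, Wnt10a had 75.7, 122 and 71.7 in controls and 12.5, 7.79 and 22.8 in SIX2 libraries, and Wnt9a fell (log2 −0.69 ± 0.13). Lgr6, an R-spondin receptor, fell (log2 −0.77 ± 0.16). Axin2, the general feedback target of canonical Wnt signalling, was chosen after its values were seen. It stood at 19.9, 36.0 and 43.9 in controls and 3.57, 9.74 and 9.77 in SIX2 libraries, a change of −2.01 ± 0.52 whose adjusted p rose from 0.0128 to 0.0534 without control library 3. Axin2 reached 10 in control libraries only, so its separation was a condition of entry.

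BMP and activin signalling genes split. Of 27 BMP and GDF genes, 7 were called higher and 7 lower, and the higher count was 4 without SIX2 library 1. Mstn, myostatin, the secreted limiter of muscle mass, had 513, 489 and 539 in controls and 949, 1389 and 1229 in SIX2 libraries (log2 1.19 ± 0.14, adjusted p = 4.92e-05). Fstl1, a secreted follistatin-like protein, rose by 0.86 ± 0.11, while Chrd, the BMP antagonist chordin, fell (log2 −0.64 ± 0.11) and the inhibitory Smad7 (log2 −0.78 ± 0.11). The activin subunit Inhbb had 25.2, 29.9 and 26.2 in controls and 134, 56.5 and 89.6 in SIX2 libraries (log2 1.67 ± 0.29, adjusted p = 0.00119), with SIX2 library 1 highest, and Inhba rose by 1.22 ± 0.21. In the GFP-negative libraries Inhbb changed by −0.50, not called, and its difference between populations had an adjusted p of 0.0751. Of 26 TGF-β and activin genes, 8 were called higher and 4 lower. The matricellular targets Ccn2 and Ccn4 rose by 1.21 ± 0.12 and 1.02 ± 0.11, and the ligand Tgfb2 fell (log2 −0.84 ± 0.09).

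FGF and growth factor receptor genes had 11 higher and 6 lower of 38 (3 lower without control library 1). The PEA3-type ETS factors Etv4 and Etv5, transcribed in response to FGF, rose by 0.98 ± 0.18 and 0.91 ± 0.13, and the ligands Pdgfc and Fgf21 by 0.92 ± 0.18 and 0.61 ± 0.10. Fgfrl1, a decoy-like FGF receptor, fell (log2 −0.68 ± 0.12) and Erbb2 (log2 −0.69 ± 0.14). Imprinted growth genes were also divided: Ndn, necdin, rose by 0.95 ± 0.13 and Mest by 0.68 ± 0.12, while Peg3 fell (log2 −0.65 ± 0.10). Igfbp4, an IGF-binding protein, rose by 1.30 ± 0.24 and Grb10, an adaptor that limits insulin signalling, by 0.41 ± 0.09, with 5 higher and 7 lower of 28 genes on that list. The lower count on that list was 4 without control library 1 or SIX2 library 2.

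Genes of the YAP and TEAD pathway had 5 higher and 3 lower of 23: Nuak2, a kinase, rose by 1.29 ± 0.19 and the receptor Axl by 0.55 ± 0.09, while Tead4 fell (log2 −0.49 ± 0.09) and Amotl2 (log2 −0.37 ± 0.08). Among immediate early genes, 6 were higher and 6 lower of 28. Fosl1, the FRA1 subunit of AP-1, rose by 1.37 ± 0.20, and Jun and Junb fell (log2 −0.58 ± 0.08 and −0.41 ± 0.07).

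Most called genes of the contractile apparatus were lower, with isoform exceptions. Muscle fibres are built from myosin heavy and light chains, thin filaments of actin, tropomyosin and troponin, and Z-disc proteins that anchor them. Of 15 skeletal myosins, 11 were called lower and 0 higher (median −0.47). Of 16 troponins, tropomyosins and their filament-end proteins, 10 were lower and 4 higher (median −0.44), and of 43 sarcomere proteins 22 were lower and 3 higher (median −0.25). The sarcomere count was 12 without SIX2 library 1 and 14 without SIX2 library 2. Under quantile scaling, which gives the top-ranked genes of every library equal values by construction, 5 myosins and 13 sarcomere proteins were lower.

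Myh8, the perinatal myosin heavy chain, had 20997, 19128 and 18752 normalized counts in controls and 11001, 11302 and 13431 in SIX2 libraries (log2 −0.72 ± 0.09, adjusted p = 7.08e-05). Myl3, a slow light chain, fell (log2 −0.94 ± 0.14), and the kinase Mylk4 (log2 −0.62 ± 0.09). Among the most abundant transcripts of all, the fast light chain Mylpf had 229949, 217999 and 238128 in controls against 175900.0, 163925 and 180082 in SIX2 libraries and skeletal α-actin Acta1 fell (log2 −0.33 ± 0.06). Under quantile scaling the change of Mylpf and of Acta1 was 0 (adjusted p = 1 for each), and for Myl1, Myh3 and Tpm1, the last chosen after its values were seen, the adjusted p was 0.278, 0.0863 and 0.133. Myh13, the extraocular myosin, was among the 20 largest decreases and fell by 2.00 on the log2 scale, with an adjusted p of 0.0888 without control library 1, 0.0583 without control library 2 and 0.0854 without SIX2 library 1.

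Regulators of sarcomere assembly and turnover were among the genes that fell. Lmod3, which nucleates thin filaments, fell (log2 −0.78 ± 0.07) and Klhl41, which stabilises them, (log2 −0.72 ± 0.06). The muscle RING-finger ubiquitin ligase Trim63 fell (log2 −0.72 ± 0.08) and Trim54 (log2 −0.61 ± 0.07). Cryab, the αB-crystallin chaperone of the Z-disc, fell (log2 −0.87 ± 0.06) and the small heat shock protein Hspb1 (log2 −0.68 ± 0.07), and of 32 heat shock and chaperone genes 9 were lower and 3 higher (1 higher without control library 3).

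Within single families, muscle and non-muscle isoforms moved apart. Tpm3, which encodes cytoplasmic tropomyosins as well as the slow muscle form, had 5108, 4695 and 4302 in controls and 9811, 9979 and 9239 in SIX2 libraries (log2 1.04 ± 0.08, adjusted p = 2.81e-06), and Tpm4, a cytoplasmic tropomyosin, had 5967, 6218 and 5084 in controls against 12629.7, 11779 and 10056 in SIX2 libraries. Tpm2 had 137778, 116780.0 and 116791 in controls against 87436, 87928 and 92919.8 in SIX2 libraries (log2 −0.47 ± 0.06, adjusted p = 0.000159). The summed Tpm3 and Tpm4 levels were 9386 to 11076 in controls and 19295 to 22441 in SIX2 libraries, while the summed Tpm1 and Tpm2 levels were 180815 to 216359 and 142044 to 146962. Each sum separated the labels without overlap, in opposite directions.

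Actins were divided as well. Actb, cytoplasmic β-actin, had 49152, 47849 and 40059.5 normalized counts in controls and 109345, 88758 and 87815 in SIX2 libraries (log2 1.06 ± 0.12, adjusted p = 4.5e-05). Actg1, cytoplasmic γ-actin, chosen after its values were seen, had 13397, 15285 and 14148 in controls against 36092, 32044 and 30124 in SIX2 libraries (log2 1.20 ± 0.11). Acta2, smooth muscle α-actin, and Actc1, cardiac α-actin, were also chosen after their values were seen, and changed by 0.00 ± 0.06 and −0.08 ± 0.07 without a call. Reads of these near-identical genes could be split by the authors' counting. Actin-binding genes went both ways: Flna, the cross-linker filamin A, rose by 1.27 ± 0.14, and Tmsb10, thymosin β10, which sequesters actin monomers, fell from 169898, 109568 and 101445 to 56394, 45698 and 50871 (log2 −1.28 ± 0.16), both chosen after their values were seen.

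Called genes of calcium handling fell, with 1 exception. Of 25 excitation-contraction coupling genes 16 were called lower and 1 higher (median −0.45). The calcium channel subunits Cacng6, Cacnb1 and Cacng1 fell (log2 −0.84 ± 0.07, −0.45 ± 0.05 and −0.46 ± 0.06), the calcium-binding Casq2 (log2 −0.53 ± 0.06) and triadin, Trdn, (log2 −0.53 ± 0.08). The gene called higher was Atp2a1, the fast-fibre SERCA1 calcium pump, which had 35376, 30763 and 33262 in controls and 46187, 43666 and 48425 in SIX2 libraries (log2 0.48 ± 0.08, adjusted p = 0.000922). Its slow-fibre relative Atp2a2, chosen after its values were seen, fell (log2 −0.35 ± 0.07). Every SIX2 library exceeded every control for Atp2a1, and the reverse held for Atp2a2. In the Z-disc, Myoz1 and Myoz2 were likewise opposed, at 1.27 ± 0.21 (chosen after its values were seen) and −0.62 ± 0.07.

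**Figure D3:**
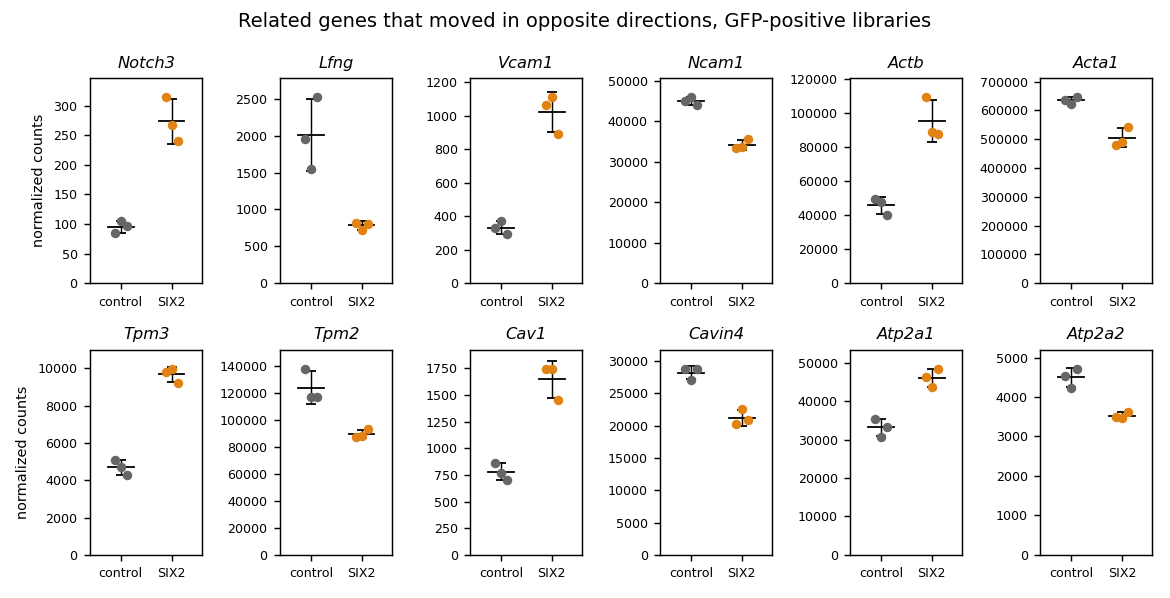
Normalized counts (linear axis from 0) of 12 genes in 6 related pairs, in the 3 control and 3 SIX2 libraries. Dots are libraries, the line is the mean and the bar the SD (n = 3). Within a pair the SIX2 libraries lie above the controls for one gene and below for the other, as with Tpm3 and Tpm2 or Atp2a1 and Atp2a2. The pairs were chosen for this after their values were seen, and relatives without a call, such as Actc1 and Cav3, are not shown.

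Called genes of the fibre's membrane and synapse were mostly lower. In the dystrophin complex, which ties the cytoskeleton to the matrix, 8 of 20 genes were lower and 1 higher, and the lower count was 5 without SIX2 library 1. Nos1, neuronal nitric oxide synthase, had 218, 308 and 214 in controls and 64.3, 74.0 and 81.4 in SIX2 libraries (log2 −1.72 ± 0.19, adjusted p = 3.83e-05). Syntrophin Sntb1 fell (log2 −0.70 ± 0.07). At the neuromuscular junction 9 of 15 were lower and 1 higher (4 lower under quantile scaling, 5 without SIX2 library 2), with the fetal acetylcholine receptor subunit Chrng at −0.42 ± 0.06. Enzymes of muscle energy supply were divided, 3 higher (1 without control library 2 or SIX2 library 2) and 5 lower of 20: creatine kinases Ckm and Ckb fell (log2 −0.63 ± 0.08 and −0.91 ± 0.07) and the fatty acid carrier Fabp3 (log2 −1.03 ± 0.06), while lactate dehydrogenase Ldha rose by 0.34 ± 0.06.

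Fusion genes were divided. Mymx, myomerger, which opens the fusion pore between myoblasts, fell (log2 −0.88 ± 0.07), and the adhesion molecule Jam3 (log2 −0.44 ± 0.06). The interleukin 4 receptor Il4ra rose by 1.51 ± 0.20, the RAC activator Dock1 by 0.88 ± 0.15 and the membrane-remodelling ATPase Ehd2 by 0.90 ± 0.13, with 3 higher and 5 lower of 19 in all (2 or 3 lower without any 1 of the control libraries or SIX2 library 1 or 2).

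On 5 lists of DNA replication, repair and mitosis, genes were called higher and none lower. A dividing cell licenses origins, copies its DNA, repairs and condenses its chromosomes and pulls them apart on the spindle, and the genes of these steps are repressed in resting cells by the DREAM complex through E2F and CHR promoter motifs. Of 61 spindle and kinetochore genes 55 were called higher and 0 lower, with a median log2 change of 0.93. The counts were 18 higher of 23 for origin licensing (median 0.86), 27 of 36 for the replication fork and nucleotide supply (0.70), 18 of 33 for homologous recombination and the Fanconi pathway (0.86) and 13 of 21 for condensation and cohesion (0.62), with 0 lower in each. None of these 5 counts of genes called higher moved by more than 1.5 times in any of the 26 settings tried. The counts of 0 lower were less fixed. Origin licensing had 1 gene lower in several settings, among them DESeq2, the replicate block and the fit without SIX2 library 2. Condensation and cohesion had 1 lower with GC correction.

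Promoter stretches of 4 of these genes are shown as examples of the CHR, CCAAT and E2F letters named above. They are from RefSeq (GRCm38.p6), 5′ to 3′ on the gene's strand, from the 250 bases before the start, with motif letters in capitals. In Cdc20 and Kif11 the capitals mark the CHR letters TTTGAA and the CCAAT box, on either strand (TTCAAA and ATTGG are the same letters on the other strand), and in Mcm5 and Mcm6 they mark the E2F letters TTTGGCGC or TTTCGCGC, again on either strand. In Mcm5 the E2F letters occur on both strands and overlap. CCAAT letters in Mcm6 are left in lower case.
Cdc20 (chr4:118437344-118437423, minus strand): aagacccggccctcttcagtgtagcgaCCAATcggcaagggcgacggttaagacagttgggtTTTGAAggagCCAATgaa
Kif11 (chr19:37376302-37376381, plus strand): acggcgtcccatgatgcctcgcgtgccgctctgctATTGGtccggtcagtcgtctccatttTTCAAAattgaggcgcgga
Mcm5 (chr8:75109324-75109403, plus strand): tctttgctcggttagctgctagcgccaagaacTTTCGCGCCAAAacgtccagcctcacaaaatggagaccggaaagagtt
Mcm6 (chr1:128359709-128359788, minus strand): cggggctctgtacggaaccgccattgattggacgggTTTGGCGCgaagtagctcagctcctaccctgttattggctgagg
Cdc20, the activator of the anaphase-promoting complex, had 1326, 1350.5 and 1260.5 normalized counts in controls and 3224, 3100.2 and 2623 in SIX2 libraries (log2 1.18 ± 0.09, adjusted p = 2.98e-06). Every SIX2 library lay far above every control. The helicase subunits Mcm5 and Mcm6, the second chosen after its values were seen, rose by 1.12 ± 0.13 and 0.62 ± 0.09, and Kif11, the bipolar spindle kinesin, also chosen after its values were seen, by 0.96 ± 0.12. Of the 54 spindle genes with a promoter entry, 14 (25.9%) held both CHR and CCAAT letters, against 5.10% of the 10303 matched genes of the comparison and 5.55% of all 32851 promoter entries. Both letters were also in 3 of 18 licensing promoters (16.7%). E2F letters were in 3 of the 18 licensing promoters (16.7%) and 2 of the 54 spindle promoters (3.70%), against 1.47% and 0.654%. CCAAT letters alone had like shares on the 2 lists, 64.8% of spindle and 66.7% of licensing promoters. These lists hold genes known for the steps named, so their shares describe the lists and not the change with the label. Over all genes called higher and lower, both CHR and CCAAT letters were in 7.28% and 4.50% of matched promoters. E2F letters were in 2.13% and 1.23%. A match of letters is a description of the sequence, not evidence that a factor binds there.

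Among single genes of the cycle, Fancd2 and Xrcc3, of DNA crosslink and break repair, rose by 1.63 ± 0.14 and 1.36 ± 0.20, thymidine kinase Tk1 by 1.36 ± 0.16 and cyclin E1, Ccne1, by 1.09 ± 0.11. Sgo1, which guards centromeric cohesion, rose by 1.40 ± 0.20 and Top2a by 0.97 ± 0.10. Of 26 cyclins, CDKs and inhibitors 16 were higher and 1 lower (0 to 2 lower over the settings), with Cdk6 at 1.11 ± 0.11. Ccnd2, a D-type cyclin chosen after its values were seen, had 363, 364 and 271 in controls and 938, 926 and 733 in SIX2 libraries. Cdkn1a, the p21 inhibitor, also chosen after its values were seen, had 53248, 47154 and 45112 in controls against 41810.4, 37954 and 45564 in SIX2 libraries, with overlapping ranges and no call (log2 −0.22 ± 0.08, adjusted p = 0.0536). It was called lower in 6 settings, among them without control library 3 (adjusted p = 0.0362), without SIX2 library 3 (0.0201), with library weights (0.0316) and in DESeq2 (0.0431). Replication-dependent histones, whose mRNAs mostly lack poly(A) tails, had 1 gene higher and 2 lower of 23, with summed levels of 12141 to 13221 in controls and 10524 to 11044 in SIX2 libraries, and at least one of these counts moved by 1 whenever a GFP-positive library was left out.

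Of 63 chromatin and DNA methylation genes, 49 were not called, 11 (17.5%) were higher, against 12.1% over all genes tested, and 3 were lower (5 lower without SIX2 library 3). The chaperones Chaf1a and Asf1b rose by 1.31 ± 0.16 and 1.29 ± 0.14, Uhrf1, which maintains DNA methylation, by 1.27 ± 0.12 and the architectural factor Hmga1 by 1.25 ± 0.14. Chaf1a shares exon sequence with Ubxn6 on the other strand, and their reads cannot be told apart. Of 19 E2F and DREAM regulators, 4 were higher and 2 lower (0 lower without control library 1 or 2 or SIX2 library 2), with Foxm1, which drives the mitotic programme, at 1.22 ± 0.24 and E2f7 at 0.91 ± 0.22.

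**Figure D4:**
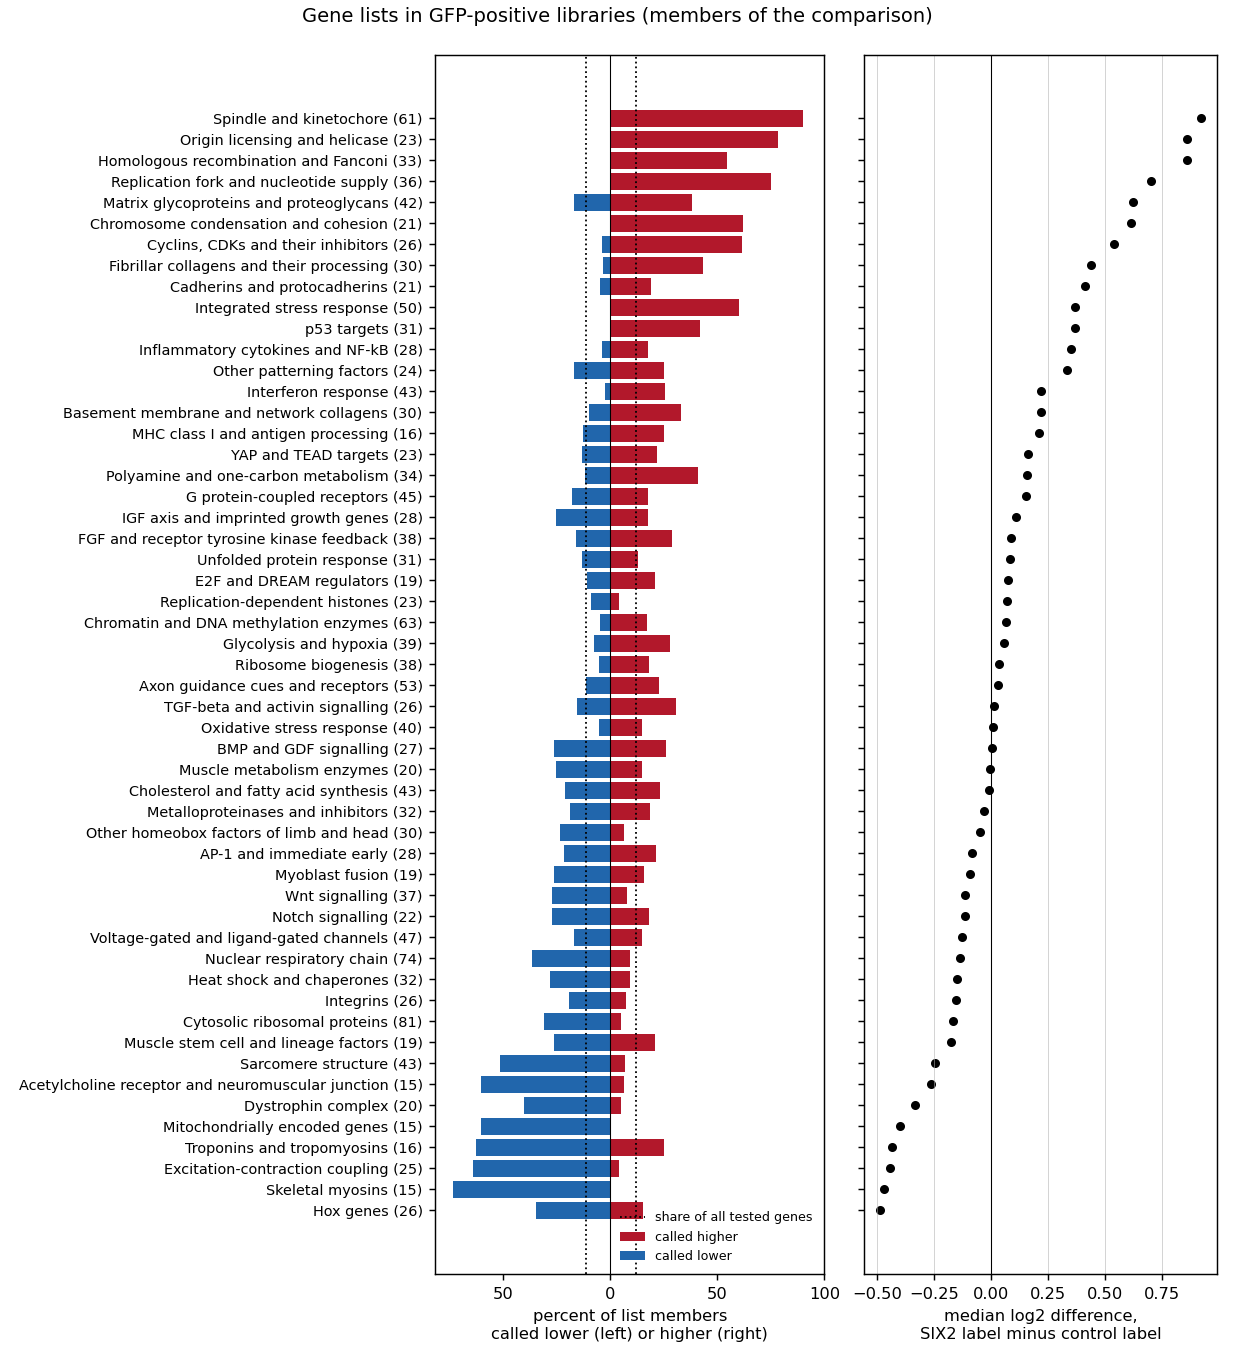
For each gene list with at least 15 members, the percent of members called higher and lower and the median log2 change between SIX2 and control labels. Spindle genes have 55 of 61 members called higher and skeletal myosins 11 of 15 called lower, against 12.1% higher and 11.2% lower over all genes tested.

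Amino acid and stress-response genes formed a further block of increases. The integrated stress response lowers general translation and, through ATF4, raises amino acid synthesis, transport and tRNA charging. Of 50 such genes 30 were higher and 0 lower (median 0.37). Promoter stretches of 3 are shown with the C/EBP-ATF response letters TGATGNAA in capitals, here read from the other strand, because ATF4 is known to act through this element.
Pck2 (chr14:55540127-55540206, plus strand): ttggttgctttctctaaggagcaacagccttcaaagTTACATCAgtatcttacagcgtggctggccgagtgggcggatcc
Chac1 (chr2:119351013-119351092, plus strand): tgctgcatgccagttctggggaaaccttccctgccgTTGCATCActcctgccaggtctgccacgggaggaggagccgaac
Fgf21 (chr7:45615586-45615665, minus strand): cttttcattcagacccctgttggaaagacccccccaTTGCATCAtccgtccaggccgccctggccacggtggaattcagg
Pck2, the mitochondrial phosphoenolpyruvate carboxykinase, had 578, 554 and 461 normalized counts in controls and 1279, 1002 and 1071 in SIX2 libraries (log2 1.07 ± 0.12, adjusted p = 3.09e-05), opposite in direction to its cytosolic relative Pck1. Trib3, a pseudokinase, had 173, 254 and 256 in controls against 765, 777 and 707 in SIX2 libraries, with no SIX2 library under 700 and no control above 260. The serine synthesis enzymes Phgdh and Psat1 rose by 0.66 ± 0.06 and 0.72 ± 0.06 and Shmt2, which passes serine carbon to folate, by 0.58 ± 0.06. Response letters were in 11 of 39 matched promoters of the list (28.2%), against 2.27% of matched genes of the comparison and 3.45% of all entries. The list holds genes known for this response, so its share describes the list and not the change with the label. Over all genes called higher the share was 2.72%, and over those called lower 2.21%. Atf4 itself rose by 0.37 ± 0.07, and Chac1, which breaks down glutathione, by 1.26 ± 0.14 (adjusted p = 4.7e-05), both chosen after their values were seen.

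Polyamine and one-carbon genes had 14 higher and 4 lower of 34, with Mthfd1l at 0.85 ± 0.12 and Pfas, of purine synthesis, at 0.77 ± 0.11. Targets of p53 had 13 higher and 0 lower of 31 (median 0.37), or 1 lower in the settings where Cdkn1a was called: Gdf15, a secreted stress cytokine, at 1.40 ± 0.19, Zmat3 at 0.89 ± 0.09, Ccng1 at 0.75 ± 0.07 and the exonuclease Aen at 0.58 ± 0.06. Gdf15 and some other members stand on both the p53 and the stress-response list. Of 31 unfolded protein response genes 4 were higher and 4 lower, 12.9% each, near the 12.1% and 11.2% over all genes tested. The lower count was 2 without control library 3 or SIX2 library 1. Named members were the endoplasmic chaperones Creld2 and Pdia4 at 0.54 ± 0.09 and 0.48 ± 0.10 and Dnajb11 and Selenos at −0.50 ± 0.08 and −0.54 ± 0.09.

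Called matrix genes were mostly higher. Of 30 fibrillar collagen genes and their enzymes 13 were higher and 1 lower (median 0.44), and of 42 matrix glycoproteins 16 were higher and 7 lower (median 0.63). Spp1, osteopontin, already abundant, had 21681, 21339 and 19602 normalized counts in controls and 64179.5, 60973 and 53930.2 in SIX2 libraries (log2 1.51 ± 0.08, adjusted p = 6.77e-07). Col1a2 and Col3a1 rose by 1.29 ± 0.13 and 1.21 ± 0.18, Thbs1, thrombospondin, by 1.31 ± 0.09 and Loxl3, a collagen cross-linker, by 1.76 ± 0.29, while its relative Loxl1 fell (log2 −0.49 ± 0.08). The summed fibro-adipogenic markers given above, Col3a1 among them, moved with these genes, and Dcn had 0 reads in all 6 libraries. Ly6a, the SCA1 antigen of such cells, had 4.59, 7.20 and 2.53 in controls and 32.2, 23.4 and 26.1 in SIX2 libraries, and Pdgfra, their defining receptor, had 7.65, 12.2 and 27.0 in controls against 10.7, 3.90 and 11.4 in SIX2 libraries without a call. Their part in the matrix result was not tested.

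Basement membrane and network collagens had 10 higher and 3 lower of 30. Col8a1 rose by 1.64 ± 0.18, the linker nidogen, Nid1, by 1.12 ± 0.16 and Col19a1 by 0.83 ± 0.09. Col25a1, a transmembrane collagen of the muscle surface needed for motor innervation, fell (log2 −1.19 ± 0.13) and the laminin chain Lamb3 (log2 −0.70 ± 0.12). Among proteases and inhibitors, 6 higher and 6 lower of 32 (3 lower without any 1 control library and 2 without SIX2 library 1), Adamts5 rose by 1.64 ± 0.18, Timp3 by 1.02 ± 0.16 and Adam12 by 0.69 ± 0.16, and Adamtsl2 fell (log2 −0.74 ± 0.12). Integrins had 2 higher and 5 lower of 26, with 2 or 3 lower when control library 2 or 3 or any 1 SIX2 library was left out.

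Caveolae, the small membrane pits coated by caveolins and cavins, had opposed members. Cav1 had 866, 769 and 703 in controls and 1745, 1746 and 1449 in SIX2 libraries (log2 1.08 ± 0.13, adjusted p = 6.65e-05), and Cavin2 rose by 1.87 ± 0.23. Cavin4, the muscle cavin, had 28834, 27074 and 28732 in controls against 20229, 22650.3 and 20879 in SIX2 libraries (log2 −0.41 ± 0.06, adjusted p = 0.000361). Neither range overlapped. Cav3, the muscle caveolin, and Cavin1, chosen after their values were seen, changed by −0.07 ± 0.05 and −0.07 ± 0.10 without a call.

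Other surface genes were divided. Pcdh19 and Cdh6 rose by 1.75 ± 0.43 and 1.15 ± 0.29, and Cdh2, N-cadherin, fell (log2 −0.36 ± 0.06). Of 53 axon guidance genes 12 were higher (22.6%) and 6 lower (11.3%), the lower share near the 11.2% over all genes tested. The lower count was 3 without control library 1 or 2. Named members were the semaphorin receptor Nrp1 at 1.58 ± 0.10, the ligand Sema3a at 1.21 ± 0.19, Sema3b at −0.92 ± 0.13 and the neurotrophin receptor Ngfr at −1.22 ± 0.14. The potassium channel Kcnk2 rose by 1.90 ± 0.30 and the glutamate receptor subunit Gria3 by 1.64 ± 0.33, while Trpm4 and Kcnn3 fell (log2 −0.76 ± 0.14 and −0.66 ± 0.08). Among 45 G protein-coupled receptors, 8 were higher and 8 lower, 17.8% each, against 12.1% and 11.2% over all genes tested. The higher count was 5 when only these 6 libraries were fitted. The chemokine scavenger Ackr3 rose by 1.00 ± 0.13 and the prostaglandin receptor Ptger4 by 1.01 ± 0.20, and Adgrg1 and Gprc5b fell (log2 −0.67 ± 0.13 and −0.57 ± 0.10).

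Single markers of other cell types moved in both directions. Tagln, an actin-binding protein of smooth muscle that myoblasts also express, rose by 1.09 ± 0.07 and Pdgfrb by 0.87 ± 0.19, while Cspg4, the NG2 proteoglycan, fell (log2 −0.84 ± 0.18). The fat cell regulator Pparg fell (log2 −1.04 ± 0.13) and Lpl, lipoprotein lipase, rose by 0.74 ± 0.16. Egfl7 rose by 1.67 ± 0.38 and Pecam1, a defining endothelial marker, had 12, 0 and 11 reads in controls and 4, 2 and 2 in SIX2 libraries. The bone genes Dmp1 and Sp7 moved by 1.07 ± 0.15 and −0.95 ± 0.12 and the neuronal Stmn2 (log2 −1.31 ± 0.19). The epithelial markers Trp63 and Cldn4 changed by −0.09 ± 0.16 and −0.74 ± 0.32 without a call.

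Hox genes split by paralog number. Hox genes lie in 4 clusters, and low-numbered paralogs pattern the anterior trunk and high-numbered paralogs the posterior trunk and the distal limb. Of 26 Hox genes in the comparison 4 were called higher and 9 lower. Among the 18 with paralog numbers 1 to 8, 0 were higher and 8 lower (median −0.58), and among the 8 numbered 9 to 13, 4 were higher and 1 lower (median 0.89). Hoxc10 had 88.0, 63.6 and 114 normalized counts in controls and 239, 242 and 192 in SIX2 libraries (log2 1.36 ± 0.21, adjusted p = 0.000501). Hoxc8, which lies beyond Hoxc9 in the same cluster, had 81.8, 71.4 and 83.5 in controls against 33.9, 33.1 and 19.5 in SIX2 libraries (log2 −1.46 ± 0.24, adjusted p = 0.000822).

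Within 1 cluster the direction turned between adjacent genes. In the HoxC cluster Hoxc6, Hoxc8 and Hoxc9 fell (log2 −1.14 ± 0.21, −1.46 ± 0.24 and −0.78 ± 0.19) and Hoxc10 rose, and in HoxA, Hoxa7 fell by 0.59 on the log2 scale, with Hoxc9 and Hoxa7 chosen after their values were seen. In the same cluster Hoxa9 rose by 0.71 ± 0.15. Hoxa11 and the antisense transcript Hoxa11os share exon sequence, so their increases of 2.30 ± 0.36 and 2.27 ± 0.25 cannot be told apart. Hoxa10, chosen after its values were seen, changed by 0.70 ± 0.19, with an adjusted p of 0.0598 without control library 3. Hoxa5, also chosen so, lost its call without control library 2 or 3 (adjusted p = 0.102 and 0.162) and without SIX2 library 2 or 3 (0.0646 and 0.149).

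**Figure D5:**
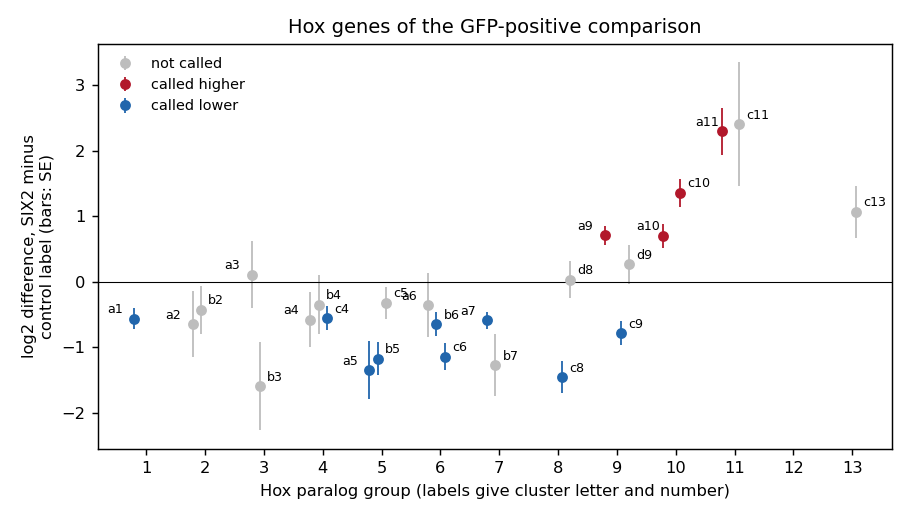
Log2 change between SIX2 and control labels (vertical axis, bars are the SE) of the 26 Hox genes by paralog number (horizontal axis) and cluster. The called genes numbered 1 to 8 all lie below 0, and 4 of the 5 called genes numbered 9 to 13 lie above.

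Other patterning factors moved by large amounts in both directions. Emx2, of the limb girdle and brain, fell (log2 −1.73 ± 0.18), with exons shared with Emx2os on the other strand. Tbx3 fell (log2 −1.38 ± 0.13). Tbx4, of the hindlimb, changed by 0.68 ± 0.17, with an adjusted p of 0.052 without control library 1. Snai2, of mesenchymal cells, rose by 1.38 ± 0.17, and Gli3, a Hedgehog effector, by 0.97 ± 0.18. Tbx15 and En1, chosen after their values were seen, changed by −0.13 ± 0.09 and 0.77 ± 0.37 and were not called. The muscles of origin are not given in the sources used here, so a difference between the labels in the muscles pooled and an effect of the plasmid cannot be told apart from these labels.

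Immune genes rose in part. Interferon-response genes had 11 higher (25.6%) and 1 lower (2.33%) of 43, against 12.1% and 11.2% over all genes tested. The higher count was 5 when only the 6 GFP-positive libraries were fitted. The immunity GTPases Gbp6 and Irgm1 rose by 1.06 ± 0.07 and 0.99 ± 0.23 and Xaf1 fell (log2 −1.02 ± 0.19). In class I antigen presentation, 4 higher and 2 lower of 16, the heavy chains H2-D1, H2-T22 and H2-K1 rose by 0.61 ± 0.08, 1.08 ± 0.22 and 0.35 ± 0.07, and the loading factor Tapbp fell (log2 −0.54 ± 0.11). Csf1, the macrophage growth factor, rose by 1.30 ± 0.11 and the chemokine Cxcl12 by 0.89 ± 0.13, and Il1b fell (log2 −1.76 ± 0.18). The leukocyte markers as a list summed to 206 to 245 in controls and 191 to 243 in SIX2 libraries.

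Most called genes of mitochondrial energy supply and translation were lower, by small amounts. Of 15 mitochondrially encoded genes 9 were lower and 0 higher (median −0.40), and the count was 5 without control library 3. Of 74 nuclear respiratory chain genes 27 were lower and 7 higher (median −0.14). Of 81 cytosolic ribosomal proteins 25 were lower and 4 higher (median −0.17), and the higher counts of these last 2 lists ranged down to 1 and 2 over the settings. The nuclear and ribosomal lower counts were 14 and 12 without control library 1, 15 and 12 without SIX2 library 2, and 16 each under quantile scaling. Cox5a and Cox7c, of cytochrome c oxidase, fell (log2 −0.50 ± 0.08 and −0.66 ± 0.14), and Rpl37 and Rpl37a (log2 −0.73 ± 0.15 and −0.76 ± 0.15), while Rps2 rose by 0.46 ± 0.08.

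Length moved with these lists. Their median exon lengths were 955 bases for the mitochondrial genes, 1737 for the nuclear respiratory chain and 1770 for ribosomal proteins, against 4255 over the genes of the comparison. Skeletal myosins, with a median log2 change of −0.47, had a median of 6016 bases. In the shortest of 5 equal bins of the genes by exon length 11.0% were called higher and 12.8% lower, and in the longest 10.8% and 12.2%. The part of length in the result was not tested.

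Called glycolytic genes were mostly higher, 11 higher and 3 lower of 39 (1 lower under quantile scaling), all by small amounts among those named: Pgk1 at 0.28 ± 0.06, Pgam1 at 0.35 ± 0.05 and Pfkp at 0.35 ± 0.07, with the mitophagy receptor Bnip3l at −0.31 ± 0.06. In the pentose phosphate branch G6pdx and Tkt rose by 0.97 ± 0.12 and 0.88 ± 0.18, and Taldo1 fell (log2 −0.42 ± 0.07). Of 43 cholesterol and fatty acid synthesis genes 10 were higher and 9 lower, and the lower count was 5 without control library 1 or 3 and 4 without SIX2 library 2 or with only the 6 GFP-positive libraries fitted. Named members were Elovl6 and Fads2 of fatty acid elongation and desaturation at 1.31 ± 0.24 and 0.92 ± 0.14, and Dhcr7 and Hsd17b7 of late cholesterol synthesis at −0.55 ± 0.09 and −0.49 ± 0.09. Lss, another sterol enzyme, rose by 0.72 ± 0.14.

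The MEF3 letters that SIX-family proteins are known to bind were looked for in the same promoter windows. Myog is shown because its promoter holds a classic MEF3 site, and Postn because it was among the 40 most changed genes. TCAGGTT is in capitals, and both strands were searched.
Myog (chr1:134289883-134289962, plus strand): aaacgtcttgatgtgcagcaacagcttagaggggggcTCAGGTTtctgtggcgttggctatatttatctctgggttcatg
Postn (chr3:54360987-54361066, plus strand): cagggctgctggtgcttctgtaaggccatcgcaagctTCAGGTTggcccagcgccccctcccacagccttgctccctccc
These letters were in 51 of 1359 matched promoters of genes called higher (3.75%) and 51 of 1222 of genes called lower (4.17%), against 3.39% of the genes of the comparison and 3.49% of all entries. By list, they were in 5 of 54 spindle promoters (9.26%), 1 of 18 licensing promoters (5.56%), 3 of 32 sarcomere promoters (9.38%) and 0 of 14 skeletal myosin promoters. They were in 2 of the 29 matched promoters of the 40 most changed genes. No match says only that these letters are not in this window.

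GFP-negative libraries of the same culture and plasmids gave a separate estimate of the plasmid-label change, with their own controls. There, 13.6% of tested genes were called higher and 14.3% lower. Of the 3365 genes called in GFP-positive libraries, 3069 had a change of the same sign in GFP-negative libraries, and 1081 were called higher and 917 lower in both. The share with the same sign over all genes tested was not counted. In GFP-negative libraries 1357 of the 3365 were not called and 10 were called in the opposite direction. The difference between populations was itself tested, and 0.0% of genes passed in limma (smallest adjusted p 0.0751), with 2437 at an unadjusted p under 0.05, and 0 in edgeR with 2394. DESeq2 called 562. No gene above is therefore called particular to the GFP-positive cells.

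At the level limit, the 5 genes just inside, whose third-highest value was 10.1, were 2310068J16Rik, Ppp1ccb, Gm49494, Gm11515 and Gm41757. The 5 just outside, at 9.96, were F2rl1, A530072M11Rik, Dipk1b, Serpina6 and A730063M14Rik. Their changes ran from −1.26 for Gm41757 to 1.66 for Dipk1b, and none was called.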

How the data were processed

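RNA was extracted from transfected muscle stem cells, libraries were built with SMART-Seq2 and Tn5, per the labels' protocols, and the design text names the DNBSEQ-T7 as sequencer. Per the submitters' processing notes, STAR 2.7.11a, RSEM 1.3.3, DESeq2 1.42.0, FastQC 0.12.1, MultiQC 1.19 and the mouse build GRCm38 were used. The deposited signal values are read counts per gene that the authors divided by a scaling factor per library, and all of them gave whole reads again within 1e-04. Groups came from the sample labels, 3 libraries in each of 4 groups. The annotation matched 99.8% of gene IDs.

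Values plus a pseudocount of 1 were put on the log2 scale and tested by limma-trend (version 3.58.1, in R 4.3.3), with all 12 libraries in the fit (8 residual degrees of freedom) over the 14580 genes with at least 10 in at least 3 of them, two-sided, with Benjamini-Hochberg adjustment and a threshold of 0.05. Log2 changes are on this scale with their SE, and understate changes of low genes. Lists are described by counts and medians, without a test of the list. The genes of the comparison and the lists were chosen with earlier results of these data known. Named genes are the Six-family, Eya and myogenic factors, the 20 largest named changes each way without overlap and with a mean of at least 50, up to 5 called members per list by p, the 10 highest called genes each way, and the 5 genes on each side of the level limit. Some genes that this rule names are not reported here. Others are said to be chosen after their values were seen. Motifs were searched on both strands. The fit was tested on simulated data. Alternatives were other pseudocounts, filters, scalings (TMM, quantile), library weights, thinning, GC correction, the replicate number as a block, leaving out each library, edgeR 4.0.16 and DESeq2 1.42.0 on recovered reads.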

Additional observations from a re-analysis of the deposited data

How the results depend on the processing

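The number of genes called stayed within 1.5 times of 3365 in every alternative, from 2439 with only the 6 GFP-positive libraries to 3674 with DESeq2, and from 2495 to 3468 when 1 library was left out. At least 71.0% of the original calls remained in each, and 49.7 to 55.8% of calls were higher. edgeR called 3276 and quantile scaling 3216. The test of the difference between populations, with 0 genes, gave 562 with DESeq2 and 282 with library weights, and 0 to 171 when 1 library was left out, with 171 without GFP-positive control library 3 and 56 without GFP-positive SIX2 library 3. The cause was not tested.

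Of 416 genes followed over 26 settings, 373 were called. Of these, 315 were called in every setting that tested them, and 328 in every such setting with all libraries. A gene left out by a setting's filter was not tested there. None changed sign while called, and 8 uncalled genes were called in some setting. Quantile scaling set the changes of Acta1 and Mylpf to 0 by its construction. Under it Myl1, Tpm1 and Myog changed by −0.15, −0.13 and −0.06 and lost their calls too. The cause of those losses was not tested. Counts of 4 or fewer genes on a list moved often by 1 or 2.

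Replicate numbers did not pair the libraries: deviations of same-numbered control and SIX2 libraries correlated at −0.108, 0.0111 and −0.203 across genes. With the replicate number as a block 3128 genes were called, 90.7% of the original calls among them, and not every library correlated best with its own number. SIX2 libraries were shallower than controls, which limits calls at low levels there.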
